A study of Mus musculus with 12 samples.

Results

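The 32 genes described here encode the protein folding and disposal machinery of the endoplasmic reticulum (ER), the compartment in which secreted and membrane proteins are folded. They were the rows of a gene count table whose Ensembl identifiers belong to the 32 named genes, out of 54532 genes in the table. All 32 had enough counts to be tested, and their lowest count in any library was 361. They comprise 3 chaperones, 6 co-chaperones of BiP, 5 oxidoreductases and prolyl isomerases, 3 lectin chaperone and glycan checking genes, 2 secreted targets of the unfolded protein response, 2 translocon subunits, 7 genes of ER-associated degradation (ERAD), and the 3 stress sensors with Xbp1.

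RNA was sequenced from mouse bone marrow-derived macrophages, which are macrophages grown in culture from bone marrow cells. Cells carried either the control genotype (WT) or the R150X allele of Gpnmb, a premature stop change that DBA/2 mice carry naturally. Both genotypes were sequenced without treatment and after treatment with oxidised low-density lipoprotein (OxLDL), which macrophages take up to become lipid-filled foam cells. Both genotypes were labelled as DBA/2 crossed with C57BL/6 and backcrossed to C57BL/6, and each of the 4 groups had 3 libraries. The series asks how GPNMB, a transmembrane glycoprotein of macrophages, affects foam cell formation. The labels gave no OxLDL dose or duration, no age or sex of the mice, and no statement of whether a group's libraries came from separate mice or cultures, so p-values measure the spread between these libraries, which may be technical.

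Proteins enter the ER through the Sec61 channel, are held by the chaperone BiP and its partners, receive disulfide bonds from protein disulfide isomerases and are checked through their sugar chains by calnexin and calreticulin. Proteins that fail are drawn back to the cytosol and degraded, which is ERAD. When unfolded proteins accumulate, the sensors IRE1alpha, PERK and ATF6 start the unfolded protein response, in which the transcription factors XBP1 and cleaved ATF6 switch on many chaperone and ERAD genes through a promoter motif called the ER stress response element.

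That element was looked for in the 250 bases before each start in RefSeq promoter sequences of GRCm38.p6, on both strands, and 26 of the 32 genes matched a promoter. The ER stress response element (ERSE), CCAAT and CCACG with 9 free bases between them, was present in 8 of these 26 genes, or 30.8%, and in 0.13% of all 27025 genes with a promoter (0.113% of all 32851 promoters). These 8 genes were Calr, Canx, Creld2, Dnajc3, Hsp90b1, Hspa5, Pdia6 and Syvn1. A related form, ERSE-II, which is ATTGG and CCACG with 1 free base between them, was present in Herpud1 and in 0.037% of all genes. It shares the CCACG block with ERSE, and no member held both. The letters TGACGTGG, searched as the XBP1 element UPRE, were in 0 of the 26 genes and in 0.603% of all genes. Members were chosen among chaperone and ERAD genes, many of which this element switches on, so the higher share is not an independent result. A match describes the letters in this window and is not a measured binding site.

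The elements of members with large OxLDL responses, and that of Dnajc3, which did not pass the test in any comparison, are printed so that the same letters can be read beside different responses. Each is written 5′ to 3′ in the orientation of the motif, with the motif in capitals.
Hspa5 ERSE: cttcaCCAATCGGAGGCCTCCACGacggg
Hsp90b1 ERSE, distal: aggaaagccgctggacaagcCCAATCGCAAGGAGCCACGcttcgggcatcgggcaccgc
Hsp90b1 ERSE, proximal: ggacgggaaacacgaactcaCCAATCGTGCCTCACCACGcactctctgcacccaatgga
Calr ERSE: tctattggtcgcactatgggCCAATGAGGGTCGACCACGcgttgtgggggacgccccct
Pdia6 ERSE: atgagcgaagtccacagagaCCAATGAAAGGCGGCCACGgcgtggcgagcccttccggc
Herpud1 ERSE-II: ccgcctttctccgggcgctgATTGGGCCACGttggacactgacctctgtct
Dnajc3 ERSE: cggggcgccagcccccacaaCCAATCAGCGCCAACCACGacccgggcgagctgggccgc

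In GRCm38.p6 the Hspa5 element lies at chr2:34772025-34772043, on the gene's plus strand, from 65 to 47 bases before the RefSeq start. Those of Hsp90b1, a minus-strand gene, lie at chr10:86705638-86705656, in the gene's own orientation, and chr10:86705533-86705551, in the opposite orientation. The Calr element at chr8:84847075-84847093 also runs opposite to its gene. The Pdia6 element at chr12:17266491-17266509, the Herpud1 element at chr8:94386377-94386387 and the Dnajc3 element at chr14:118937827-118937845 are on the plus strand, as are these genes. All but the Hspa5 element lie before the GENCODE gene body; that of Hspa5 lies after the GENCODE start at 34771970, and its printed window touches an annotated exon.

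Library totals ran from 14838969 to 18222868 counts. Gpnmb, the mutated gene, averaged 5330 CPM (counts relative to the scaled size of the library) in untreated WT, 385 in untreated R150X, 12500 in OxLDL-treated WT and 706 in OxLDL-treated R150X cells. Replicate 1 of untreated R150X stood apart from replicates 2 and 3, with a chi-square statistic over genes of 9.23 and 10.1 per degree of freedom against 2.31 to 4.76 for the other pairs of replicates, so counts of members and most values that use it are also given without it. Xist was at 0 to 2.75 CPM in WT and 228 to 349 CPM in R150X libraries, and Y-linked genes were lower but present in R150X, so genotype and the sex of the source animals cannot be told apart. Summed over 7 macrophage markers, libraries held 19130 to 24650 CPM, mostly Lyz2. All 8 markers of fibroblasts and stroma were detected in every group, and their sum, mostly Col1a1, Col1a2 and Col3a1, was 12460 to 12550 CPM in untreated WT, 7900 to 7953 in untreated R150X, 5463 to 6100 in OxLDL-treated WT and 4683 to 4942 in OxLDL-treated R150X libraries. Markers of neutrophils summed to 38.6 to 444, of osteoclasts to 129 to 470, of adipocytes to 0.738 to 44.1, of B and plasma cells to 30.0 to 45.7 and of T and NK cells to 0.487 to 2.31 CPM. In bulk RNA, fewer cells of a type and less RNA per cell cannot be told apart.

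Calr and P4hb were the most abundant of the 32 genes per exon length in every group, and Eif2ak3 the least. In untreated WT cells Calr stood at 350 ± 11.0 FPKM (here CPM divided by exon length in kilobases; SD, n = 3), P4hb at 319 ± 4.76 and Hspa5 at 232 ± 3.63. Pdia3 followed at 222 ± 3.84, Hsp90b1 at 132 ± 3.58 and Canx at 105 ± 0.386. The sensors, the BiP co-chaperone Sil1 and Derl2, a channel protein of ERAD, sat at the other end of this scale. Atf6 stood at 15.4 ± 0.339, Ern1 at 9.73 ± 0.146, Derl2 at 8.52 ± 0.246, Sil1 at 7.82 ± 0.408 and Eif2ak3 at 6.25 ± 0.319 FPKM. Herpud1 ranked 14 in both untreated groups and 21 in both OxLDL-treated groups, and Manf 22 and 20 against 27 and 27. Edem2 ranked 20 in untreated WT and 13 to 15 in the other groups.

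**Figure D1:**
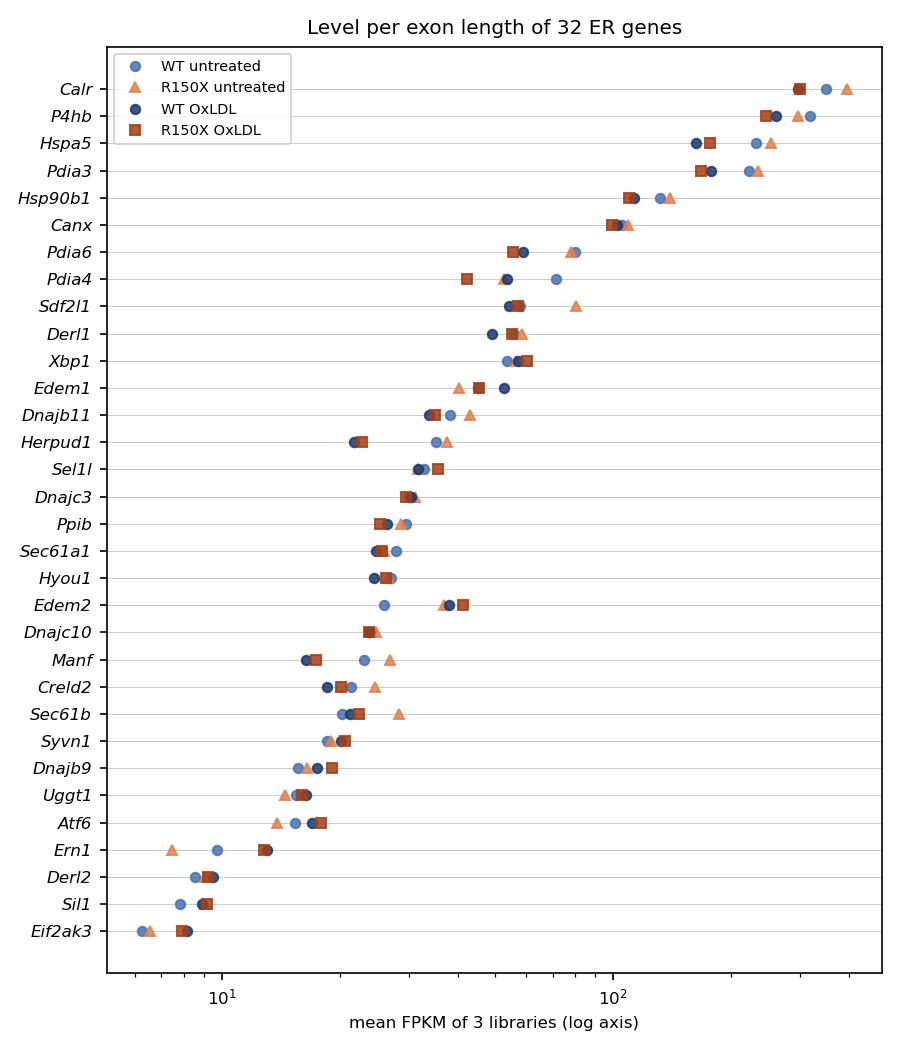
Mean level per exon length of the 32 genes in each of the 4 groups, on a log axis in FPKM; each mark is the mean of 3 libraries and genes are ordered by their level in untreated WT cells. Calr is highest, at 350 FPKM in untreated WT, and Eif2ak3 lowest, at 6.25 FPKM.

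With OxLDL, the chaperones Hspa5, Hsp90b1 and Calr, all 5 oxidoreductases and prolyl isomerases, Dnajb11, Manf, Creld2 and Herpud1 fell in both genotypes, while the ERAD genes Edem1 and Edem2 and the sensor genes Ern1 and Eif2ak3 rose in both. In WT cells 15 of the 32 genes fell and 5 rose, so 62.5% were called at an adjusted p under 0.05 (edgeR's quasi-likelihood test, Benjamini-Hochberg adjustment over 15338 genes), against 45.8% of all genes tested, of which 23.1% fell and 22.7% rose. In R150X cells 15 fell and 8 rose, or 71.9%, against 39.0% of all genes tested, of which 20.6% fell and 18.4% rose. No member had under 361 counts in any library, while all genes tested include less counted ones, so these shares are not matched for abundance. The median log2 fold change of the 32 genes was -0.07 in WT and -0.0771 in R150X, against 0.0136 and 0.0039 over all genes. Scaled by library size alone, 17 members fell and 4 rose in WT, where that scaling moved the median of all genes to -0.0999. Without replicate 1 of untreated R150X, 13 fell and 9 rose in R150X cells. Those that fell in both genotypes were 12 and those that rose in both were 4, and 29 of the 32 log2 fold changes had the same sign in both.

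Markers of other cells moved with OxLDL as well. Of the 8 stromal markers, 5 fell in WT and 6 in R150X cells. Of the 8 neutrophil markers, 5 fell and 2 rose in WT (median log2 fold change -1.69) and 6 fell in R150X (median -2.25). Of 5 osteoclast markers tested, 3 fell in each genotype and 1 rose in WT, while 2 of 3 adipocyte markers tested rose in WT and 3 of 3 in R150X. The 7 macrophage markers gave 3 higher and 2 lower in WT and 3 higher and 4 lower in R150X. The part of these cells in the members' results was not tested.

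Leaving out replicate 1 of untreated R150X, the OxLDL log2 fold changes in R150X were -0.47 for Hspa5, -0.32 for Hsp90b1, -0.36 for Calr, -0.15 for Canx, -0.25 for Dnajb11 and -0.24 for Creld2. Those of the isomerases were -0.44 for Pdia3, -0.43 for Pdia6, -0.31 for Pdia4, -0.24 for P4hb and -0.13 for Ppib. For ERAD and the sensors they were -0.71 for Herpud1, 0.16 for Edem1, 0.12 for Sel1l, 0.30 for Atf6 and 0.26 for Eif2ak3, and for Dnajb9 0.25. All of these passed the test except Ppib (adjusted p = 0.061), and Syvn1 (0.14, adjusted p = 0.0404) and Xbp1 (0.12) passed it in that run and not with all libraries.

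**Figure D2:**
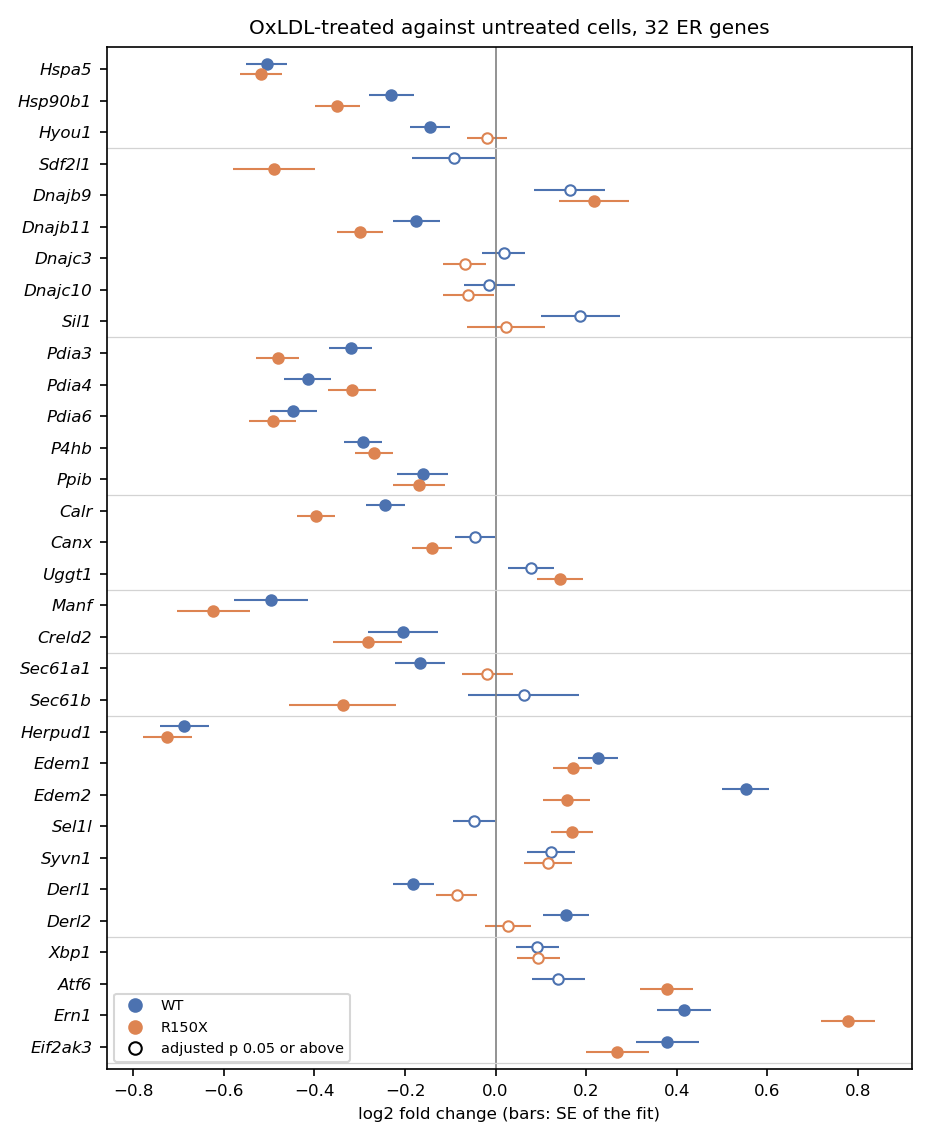
Fitted log2 fold change of OxLDL-treated against untreated cells for the 32 genes, grouped by role with lines between roles, in WT (blue) and R150X (orange) cells; bars are the SE of the fit and open circles did not pass the test. Herpud1 is farthest to the left in both genotypes, at -0.69 and -0.72, and Ern1 in R150X is farthest to the right, at 0.78.

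Among the 3 chaperones, Hspa5 and Hsp90b1 fell in both genotypes. Hspa5, which encodes BiP, stood at 979, 997 and 967 CPM in untreated WT and at 719, 688 and 665 CPM in OxLDL-treated WT libraries. In R150X it stood at 1140, 1050 and 1020 CPM without OxLDL and at 769, 743 and 733 CPM with it. Every treated library was below every untreated library, and replicate 1 of untreated R150X was the highest of all. The log2 fold change was -0.51 in WT (SE 0.0458, adjusted p = 7.87e-09) and -0.52 in R150X (SE 0.0457, adjusted p = 6.78e-09), or 0.704 and 0.698 times the untreated level. Hsp90b1, which encodes GRP94, the ER member of the HSP90 family, stood at 549, 533 and 520 CPM in untreated WT and 469, 451 and 444 CPM in treated WT libraries. In R150X it went from 588, 565 and 538 CPM to 467, 446 and 414 CPM. The treated and untreated libraries of a genotype did not overlap, and the log2 fold changes were -0.23 (SE 0.0495, adjusted p = 0.000651) and -0.35 (SE 0.0495, adjusted p = 7.08e-06). Hyou1, whose protein recharges BiP with nucleotide, fell in WT (-0.14, adjusted p = 0.0104), and in R150X its log2 fold change was -0.02 (adjusted p = 0.763). The difference between these responses was 0.12 on the log2 scale (SE 0.062) with an adjusted p of 0.245.

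The co-chaperones of BiP did not move as a group. Dnajb11, a J protein that brings substrates to BiP, fell in WT (-0.18, adjusted p = 0.00831) and in R150X (-0.30, adjusted p = 7e-05). Sdf2l1, which works in a complex with Dnajb11, stood at 65.5, 64.1 and 62.5 CPM in untreated WT and 57.9, 55.7 and 66.6 CPM in treated WT libraries, which overlap. In R150X it went from 104, 79.7 and 82.7 CPM to 60.0, 58.5 and 71.2 CPM, with no overlap. Its log2 fold change was -0.09 in WT (SE 0.0918, adjusted p = 0.439) and -0.49 in R150X (SE 0.0899, adjusted p = 0.000159), and -0.36 without replicate 1 of untreated R150X (adjusted p = 0.000327). The difference between these responses was -0.40 (SE 0.128), with an adjusted p of 0.0614 in edgeR and 0.0411 in DESeq2. It was -0.26 with an adjusted p of 0.123 without replicate 1 of untreated R150X.

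Dnajb9, a J protein of BiP that also restrains IRE1alpha, was at 41.7, 39.9 and 38.1 CPM in untreated WT and 49.1, 45.7 and 39.0 CPM in treated WT libraries. Levels in R150X were 44.3, 41.9 and 39.8 CPM and then 50.8, 51.0 and 44.5 CPM. The groups overlapped in WT and did not in R150X, where Dnajb9 rose by 0.22 on the log2 scale (SE 0.078, adjusted p = 0.0318). That call was lost when replicate 2 or 3 of untreated R150X or replicate 1 or 2 of treated R150X was left out, with adjusted p up to 0.128. Scaling by library size alone also ended it (adjusted p = 0.0527). In WT the log2 fold change was 0.16 (SE 0.0788, adjusted p = 0.0969). Dnajc3 and Dnajc10, a J protein and a J protein with disulfide reductase activity, and Sil1, a nucleotide exchange factor of BiP, passed the test in no comparison. Their OxLDL log2 fold changes lay between -0.07 and 0.19.

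All 5 oxidoreductases and prolyl isomerases fell with OxLDL in both genotypes, while 23.1% of all genes tested fell in WT and 20.6% in R150X. Pdia6, a disulfide isomerase that also regulates IRE1alpha, was at 304, 298 and 296 CPM in untreated WT and 230, 213 and 216 CPM in treated WT libraries. In R150X it went from 316, 282 and 276 CPM to 205, 209 and 207 CPM. The treated libraries were all below the untreated ones, and the log2 fold changes were -0.45 (SE 0.0522, adjusted p = 3.75e-07) and -0.49 (SE 0.0523, adjusted p = 1.16e-07). Pdia3, the isomerase that works with calnexin and calreticulin, was at 704, 706 and 684 CPM in untreated WT and 580, 564 and 532 CPM in treated WT libraries. R150X libraries held 772, 733 and 697 CPM and then 530, 541 and 506 CPM. These groups did not overlap, and the log2 fold changes were -0.32 (SE 0.047, adjusted p = 8.73e-06) and -0.48 (SE 0.0471, adjusted p = 3.34e-08).

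Pdia4, a multidomain disulfide isomerase, was at 175, 175 and 163 CPM in untreated WT and 132, 130 and 122 CPM in treated WT libraries. R150X libraries were at 128, 120 and 131 CPM and then 101, 98.9 and 105 CPM. Untreated R150X libraries thus sat at the level of treated WT libraries, and the fall with OxLDL was -0.42 in WT (SE 0.052, adjusted p = 1.02e-06) and -0.32 in R150X (SE 0.0529, adjusted p = 5.37e-05). P4hb, the disulfide isomerase that is also a subunit of collagen prolyl hydroxylase, fell by 0.29 in WT (adjusted p = 5.7e-06) and by 0.27 in R150X (adjusted p = 2.14e-05) on the log2 scale. Ppib, a prolyl isomerase, fell least, by 0.16 (adjusted p = 0.0248) and 0.17 (adjusted p = 0.0226). Both Ppib calls were lost when some single libraries were left out (replicate 2 or 3 of untreated WT, 1 or 2 of treated WT, 1 of untreated R150X, 1 or 2 of treated R150X), with adjusted p up to 0.137. Snx22 overlaps 25.0% of Ppib's exon length on the opposite strand but averaged 7.58 counts against 1532 for Ppib.

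**Figure D3:**
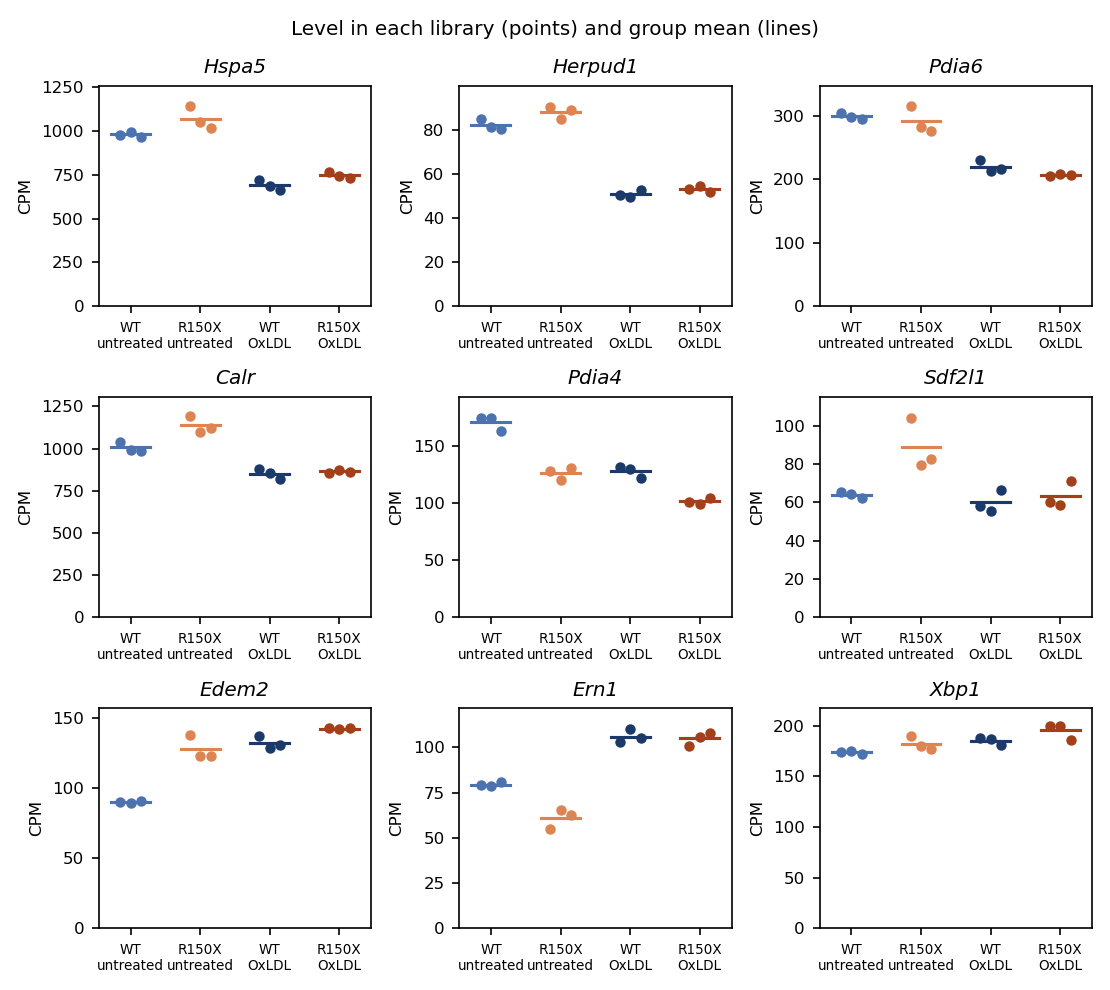
Level in CPM of 9 of the genes in each library (points) with the group mean (lines), on axes that start at 0. Hspa5, Herpud1, Pdia6 and Calr are lower in every OxLDL-treated library than in the untreated libraries of the same genotype, and Edem2 and Ern1 are higher.

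Of the lectin chaperones, calreticulin fell in both genotypes. Calr was at 1040, 993 and 987 CPM in untreated WT and 880, 855 and 819 CPM in treated WT libraries. In R150X it went from 1190, 1100 and 1120 CPM to 856, 874 and 863 CPM. The groups did not overlap, and the log2 fold changes were -0.24 (SE 0.0426, adjusted p = 7.41e-05) and -0.40 (SE 0.0426, adjusted p = 1.37e-07). Canx, the membrane-bound relative of calreticulin, had a log2 fold change of -0.05 in WT (adjusted p = 0.42) and fell by 0.14 in R150X (adjusted p = 0.0157), a call lost without replicate 3 of treated R150X (adjusted p = 0.109). Fitting only the groups compared also ended the Canx call. Uggt1, which re-tags unfolded glycoproteins for another round with the lectins, went the other way, at 0.08 in WT (adjusted p = 0.225) and 0.14 in R150X (adjusted p = 0.0311). The Uggt1 call was lost without replicate 1 or 2 of untreated R150X or replicate 1 or 2 of treated R150X, with adjusted p up to 0.116. Library size alone, no filter on low counts and a fit of only the groups compared each ended it as well.

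Both secreted targets of the unfolded protein response fell. Manf, a stress-induced secreted protein that binds BiP, was at 85.3, 77.1 and 81.7 CPM in untreated WT and 60.5, 54.7 and 57.9 CPM in treated WT libraries. The R150X libraries held 111, 87.7 and 86.1 CPM and then 57.0, 61.7 and 65.7 CPM. No treated library reached an untreated one, and the log2 fold changes were -0.50 (SE 0.0816, adjusted p = 3.57e-05) and -0.62 (SE 0.0805, adjusted p = 1.99e-06), the latter -0.50 without replicate 1 of untreated R150X. Creld2 fell by 0.20 in WT (adjusted p = 0.0367) and by 0.28 in R150X (adjusted p = 0.00531). The WT call of Creld2 was lost without any 1 of the untreated WT libraries or without replicate 1 of treated WT, with adjusted p up to 0.196.

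The 2 translocon subunits differed from each other. Sec61a1, the channel itself, fell in WT by 0.17 (adjusted p = 0.019), a call lost without replicate 2 or 3 of untreated WT or replicate 1 of treated WT (adjusted p up to 0.0831). In R150X its log2 fold change was -0.02 (adjusted p = 0.829). Sec61b, a small subunit of the channel, was at 26.5, 23.7 and 27.2 CPM in untreated WT and 26.3, 24.6 and 29.9 CPM in treated WT libraries, which overlap. In R150X it was at 44.5, 30.3 and 33.5 CPM and then 25.0, 27.6 and 32.7 CPM, which also overlap. Its log2 fold change in R150X was -0.34 (SE 0.118, adjusted p = 0.0279). Without replicate 1 of untreated R150X, the library at 44.5 CPM, it was -0.17 with an adjusted p of 0.21, and the call was also lost without replicate 1 or 2 of treated R150X.

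Of the 7 ERAD genes, 3 rose and 2 fell in WT, and 3 rose and 1 fell in R150X. These are 71.4% and 57.1%, against 45.8% and 39.0% of all genes tested. Herpud1, which organises the ubiquitin ligase complex in the ER membrane, was at 84.8, 81.0 and 80.4 CPM in untreated WT and 50.6, 49.6 and 52.7 CPM in treated WT libraries. In R150X it went from 90.3, 84.6 and 88.7 CPM to 53.2, 54.6 and 51.7 CPM. The gap between treated and untreated libraries was wide in both genotypes. Its log2 fold changes of -0.69 in WT (SE 0.0536, adjusted p = 7.2e-10) and -0.72 in R150X (SE 0.0531, adjusted p = 3.2e-10) were the lowest of the 32 genes, or 0.621 and 0.605 times the untreated level.

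Edem2, which starts the mannose trimming that marks glycoproteins for degradation, was at 89.9, 89.7 and 90.8 CPM in untreated WT and 137, 129 and 131 CPM in treated WT libraries. R150X libraries were at 138, 123 and 123 CPM without OxLDL and 143, 142 and 143 CPM with it. Untreated R150X libraries were already near the treated WT level, and all treated libraries exceeded the untreated ones of their genotype. Edem2 rose by 0.55 in WT (SE 0.0528, adjusted p = 1.86e-08), the largest rise of the 32 genes in WT, and by 0.16 in R150X (SE 0.0519, adjusted p = 0.0204). The R150X call was lost without replicate 2 or 3 of untreated R150X or replicate 2 of treated R150X (adjusted p up to 0.0931), and without replicate 1 of untreated R150X the rise was 0.21. That call was also lost with no filter on low counts and when only the groups compared were fitted.

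Edem1, a related mannosidase-like protein, rose by 0.23 in WT (adjusted p = 0.000217) and 0.17 in R150X (adjusted p = 0.00375). Sel1l, the adaptor of the HRD1 ligase, had a log2 fold change of -0.05 in WT (adjusted p = 0.437) and rose by 0.17 in R150X (adjusted p = 0.00631). Syvn1, which encodes HRD1 itself, did not pass the test in either genotype, at 0.12 in both (adjusted p = 0.0644 and 0.0886). Of the Derlin channel proteins, Derl1 fell in WT by 0.18 (adjusted p = 0.00239), with -0.09 in R150X (adjusted p = 0.141). Derl2 rose in WT by 0.16 (adjusted p = 0.0161), a call lost without replicate 2 or 3 of untreated WT or replicate 1 of treated WT, and stood at 0.03 in R150X (adjusted p = 0.7). Library size alone and no filter on low counts each ended the WT call of Derl2 too.

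Ern1 and Eif2ak3 rose with OxLDL in both genotypes, Atf6 rose in R150X and did not pass the test in WT, and Xbp1 passed it in neither. Ern1, which encodes IRE1alpha, was at 79.1, 78.5 and 80.8 CPM in untreated WT and 103, 110 and 105 CPM in treated WT libraries. In R150X it was at 54.9, 65.3 and 62.9 CPM and then 101, 106 and 108 CPM. Treated libraries of both genotypes reached the same range, from a lower start in R150X. The log2 fold changes were 0.42 in WT (SE 0.0593, adjusted p = 6.15e-06) and 0.78 in R150X (SE 0.0604, adjusted p = 8.35e-10), the latter 1.71 times the untreated level. The R150X value was 0.71 without replicate 1 of untreated R150X (adjusted p = 8.56e-11).

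Eif2ak3, which encodes PERK, was at 39.3, 38.1 and 35.5 CPM in untreated WT and 46.1, 51.5 and 49.4 CPM in treated WT libraries. In R150X it was at 39.0, 40.5 and 39.1 CPM and then 43.2, 51.2 and 48.4 CPM. Treated libraries were all above untreated ones, with log2 fold changes of 0.38 (SE 0.0689, adjusted p = 0.000111) and 0.27 (SE 0.0688, adjusted p = 0.00357). Atf6, the sensor that is cleaved to a transcription factor, was at 146, 140 and 141 CPM in untreated WT and 154, 160 and 156 CPM in treated WT libraries. R150X libraries held 113, 134 and 135 CPM and then 163, 171 and 162 CPM. Its groups did not overlap in either genotype, and it rose in R150X by 0.38 (SE 0.0584, adjusted p = 2.14e-05). In WT its log2 fold change was 0.14 (SE 0.0582, adjusted p = 0.0576).

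Xbp1, the transcription factor gene whose mRNA IRE1alpha splices, was at 174, 175 and 172 CPM in untreated WT and 188, 187 and 181 CPM in treated WT libraries. In R150X it was at 190, 180 and 177 CPM and then 200, 200 and 186 CPM. The groups did not overlap in WT and did in R150X. Its log2 fold changes were 0.09 in both genotypes (SE 0.0477 and 0.0476, adjusted p = 0.124 and 0.125), and without replicate 1 of untreated R150X the R150X value was 0.12 with an adjusted p of 0.0287. Gene counts do not separate spliced from unspliced Xbp1 mRNA, so splicing was not measured here.

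**Figure D4:**
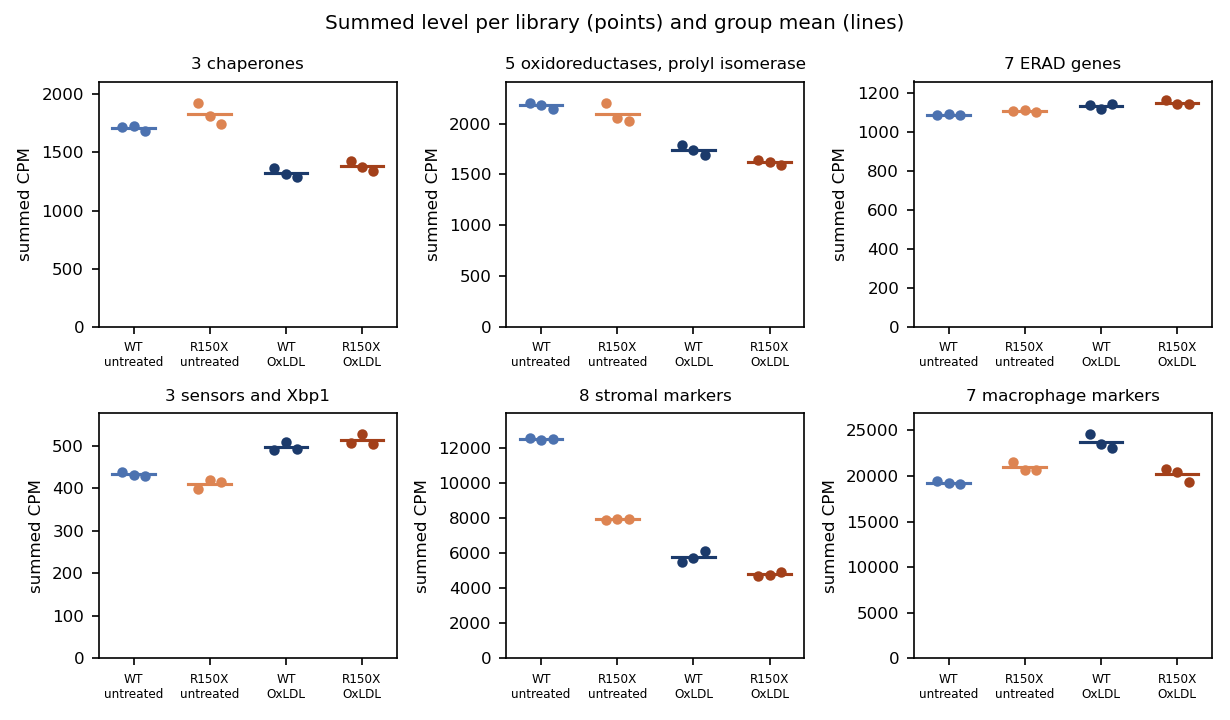
Summed CPM per library (points) and group mean (lines) of 4 groups of the ER genes and of the stromal and macrophage markers, on axes that start at 0. The 3 chaperones and the 5 oxidoreductases and prolyl isomerases are lower in every OxLDL-treated library, the sensors with Xbp1 are higher, and the stromal markers are at 12460 or more in untreated WT and 4942 or less in treated R150X. Most of the macrophage sum is Lyz2.

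Read by promoter, 6 of the 9 genes with ERSE or ERSE-II fell with OxLDL in WT and 3 did not pass the test, with a median log2 fold change of -0.23. In R150X 7 of the 9 fell and 2 did not pass, with a median of -0.35. Syvn1 and Dnajc3 carry the same letters and did not pass the test in either genotype. Among the 17 genes whose promoter held neither element, 5 fell and 5 rose in WT (median 0.06) and 7 fell and 7 rose in R150X (median 0.03). Over all genes tested 23.1% fell and 22.7% rose in WT, and 20.6% fell and 18.4% rose in R150X. Pdia3, Pdia4 and P4hb fell without either element in this window. Atf6, Derl1, Hyou1, Manf, Sec61a1 and Sil1 had no promoter to search and are in neither set. Of these, Derl1, Hyou1, Manf and Sec61a1 fell in WT, and in R150X Manf fell and Atf6 rose. These counts describe the members, and no test of the difference was made.

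Between genotypes, untreated R150X cells differed from WT in 12 of the 32 genes, 8 higher and 4 lower. This is 37.5% of the members, near the 33.0% of all genes tested that were called (18.1% higher, 14.8% lower). Scaled by library size alone, 3 were higher and 8 lower, so the direction of the split depends on the scaling. Without replicate 1 of untreated R150X, 4 were higher and 4 lower. Edem2, Sdf2l1 and Sec61b stayed higher and Pdia4, Ern1 and Edem1 lower under every alternative tried. The summed stromal markers were lower in untreated R150X, with 6 of the 8 lower and 1 higher, and all 8 neutrophil markers were lower. Their part in these differences was not tested.

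Edem2 was 1.42 times as high in untreated R150X as in untreated WT, or 0.50 on the log2 scale (SE 0.0527, adjusted p = 2.92e-07), and 0.44 without replicate 1 of untreated R150X. Sdf2l1 was higher by 0.47 (SE 0.0891, adjusted p = 0.000383), or 0.33 without that library (adjusted p = 0.0013). Sec61b was higher by 0.48 (SE 0.118, adjusted p = 0.00359), or 0.30 without it (adjusted p = 0.0307). The untreated R150X libraries of these 3 genes, given above, all exceeded the untreated WT libraries, and replicate 1 was the highest for each.

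The other 5 higher calls were smaller. Calr was higher by 0.18 (adjusted p = 0.00328), and by 0.10 with an adjusted p of 0.0704 when scaled by library size alone, and by 0.13 (adjusted p = 0.00944) without replicate 1 of untreated R150X. Hspa5 was higher by 0.13 (adjusted p = 0.0378) and Manf by 0.22 (adjusted p = 0.0371). These 2 stood, without replicate 1 of untreated R150X, at 0.07 (adjusted p = 0.192) and 0.09 (adjusted p = 0.318). Leaving out any 1 untreated WT library also ended the Hspa5 call, and leaving out replicate 2 or 3 of untreated WT ended that of Manf. Both calls were also lost with library size alone and when only the groups compared were fitted, and that of Hspa5 with no filter on low counts. Dnajb11 was higher by 0.17 (adjusted p = 0.0143), a call lost without replicate 3 of untreated WT or replicate 1 of untreated R150X. The Dnajb11 call was also lost with library size alone and when only the groups compared were fitted. Creld2 was higher by 0.20 (adjusted p = 0.0499), a call kept in 1 of 6 runs that left out a library, namely the run without replicate 2 of untreated R150X, and lost under all 6 other alternatives, DESeq2 included.

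Pdia4 was lower in R150X with and without OxLDL. Its log2 fold change was -0.44 in untreated cells (SE 0.0518, adjusted p = 1.69e-06) and -0.34 in treated cells (SE 0.0531, adjusted p = 0.000121), or 0.74 and 0.792 times the WT level, and no R150X library reached a WT library of the same treatment. The untreated value was -0.46 without replicate 1 of untreated R150X, and in that run P4hb also passed the test, at -0.15 (adjusted p = 0.00289) against -0.11 (adjusted p = 0.0571) with that library. Pdia4 lies on chromosome 6 from 47796141 to 47813430 on the minus strand of GRCm38, 1.24 Mb from Gpnmb. DBA/2 sequence carried along with the R150X allele and the allele itself cannot be told apart for genes this close. The other members on chromosome 6 were farther away, at 21.8 Mb (Eif2ak3), 39.5 Mb (Sec61a1) and 59.8 Mb (Edem1).

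Edem1 was also lower in R150X under both conditions, by -0.16 in untreated (adjusted p = 0.00698) and -0.22 in treated cells (adjusted p = 0.00145) on the log2 scale. Ern1 was lower in untreated R150X at -0.38 (SE 0.0607, adjusted p = 6.44e-05), and -0.32 without replicate 1 of untreated R150X. With OxLDL its genotype difference was -0.02 (SE 0.0589, adjusted p = 0.903). Atf6 was lower in untreated R150X at -0.16 (SE 0.0584, adjusted p = 0.0422). Without replicate 1 of untreated R150X, the library at 113 CPM, Atf6 was at -0.09 with an adjusted p of 0.132, and leaving out any 1 untreated WT library also ended that call. Fitting only the groups compared ended it too (adjusted p = 0.0612).

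**Figure D5:**
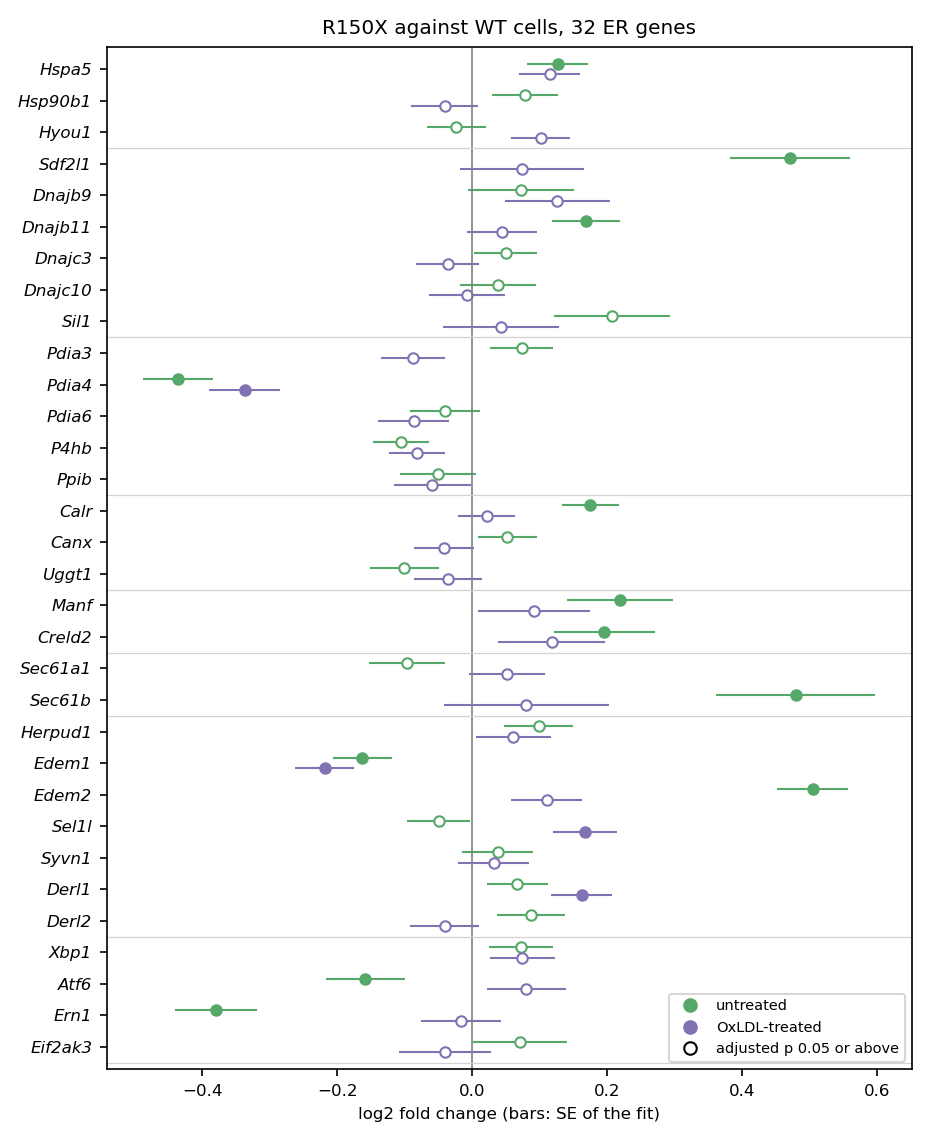
Fitted log2 fold change of R150X against WT cells for the 32 genes, grouped by role with lines between roles, in untreated (green) and OxLDL-treated (purple) cells; bars are the SE of the fit and open circles did not pass the test. Edem2, Sec61b and Sdf2l1 lie farthest to the right in untreated cells, at 0.50, 0.48 and 0.47, and Pdia4 farthest to the left in both conditions, at -0.44 and -0.34.

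Among OxLDL-treated cells, 4 of the 32 genes differed between genotypes, 2 higher and 2 lower in R150X. This is 12.5%, near the 13.0% of all genes tested (6.1% higher, 6.92% lower). Besides Pdia4 and Edem1, Sel1l was higher by 0.17 (SE 0.0468, adjusted p = 0.0196) and Derl1 by 0.16 (SE 0.0453, adjusted p = 0.0191). The Sel1l call was lost without replicate 1 or 2 of treated WT or replicate 1 or 3 of treated R150X, with adjusted p up to 0.0809. That of Derl1 was lost without replicate 2 or 3 of treated WT or replicate 1 or 2 of treated R150X, with adjusted p up to 0.085, and also with no filter on low counts. The 8 genes that were higher in untreated R150X had log2 differences between 0.02 (Calr) and 0.12 (Creld2) in treated cells, with adjusted p from 0.112 to 0.811. With OxLDL, the 32 genes together summed to 7029 ± 126 CPM in WT and to 7019 ± 94.5 CPM in R150X (SD, n = 3), against 7964 ± 93.3 and 8200 ± 230.0 CPM without it. In the same comparison all 8 neutrophil markers (median -1.89), 5 of the 7 macrophage markers and 3 of the 8 stromal markers were lower in R150X, and all 3 adipocyte markers tested were higher (median 3.58). Their part in these differences was not tested.

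The OxLDL response itself differed between genotypes for 3 of the 32 genes, or 9.38%, near the 8.32% of all genes tested (3.13% higher and 5.19% lower in R150X minus WT). Ern1 rose more in R150X, by 0.36 on the log2 scale (SE 0.0845, adjusted p = 0.0088), and Edem2 rose less, by -0.39 (SE 0.074, adjusted p = 0.00154). Both calls held under every alternative tried, and without replicate 1 of untreated R150X the values were 0.30 and -0.33. Sel1l differed by 0.22 (SE 0.0661, adjusted p = 0.0461), a call lost in 9 of 12 runs that left out a library and kept when an untreated R150X library was left out. For Hspa5 the difference was -0.01 (SE 0.0646, adjusted p = 0.949) and for Herpud1 -0.04 (SE 0.0754, adjusted p = 0.834). The comparisons share libraries, so the low Ern1 and the high Edem2 of untreated R150X enter both the genotype difference and the response. By the same test 5 of the 8 stromal markers were higher and 1 lower, and 6 of the 7 macrophage and 5 of the 8 neutrophil markers were lower. Their part was not tested.

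Beyond the 32 members, 111 other ER genes in 5 lists gave the setting. In untreated cells 54 of the 110 tested differed between genotypes (35 higher, 19 lower in R150X), or 49.1%, against 33.0% of all genes tested. By list the share was 70.0% for oxidoreductases and prolyl isomerases (5 higher, 9 lower) and 58.3% for regulators of the unfolded protein response. It was 45.8% for other ERAD, 45.0% for glycosylation and lectin genes and 27.3% for translocon and signal peptidase genes. Of 20 other oxidoreductases and prolyl isomerases, 10 fell and 2 rose with OxLDL in WT, and 8 fell and 1 rose in R150X. These are 60.0% and 45.0% of the list, against 45.8% and 39.0% of all genes tested, of which 23.1% and 20.6% fell. Ppic, a secretory-pathway cyclophilin, fell by 1.30 in WT (adjusted p = 1.56e-13) and 1.11 in R150X (adjusted p = 1.88e-12), and the collagen-associated prolyl isomerase Fkbp10 by 0.92 and 0.60. Ero1a, the oxidase that recharges disulfide isomerases, fell by 0.68 in WT and 0.17 in R150X. The list's median log2 fold change was -0.27 in WT and -0.17 in R150X.

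The 24 other ERAD genes gave 7 higher and 4 lower in WT and 4 higher and 7 lower in R150X after OxLDL, or 45.8% in each, near the 45.8% and 39.0% of all genes tested. Os9, a lectin of ERAD, rose by 0.40 and 0.31, and the ligase gene Marchf6 by 0.41 and 0.26. In untreated cells 11 of these 24 were higher in R150X, against 18.1% of all genes, and Selenok was at 0.40 (adjusted p = 8.35e-05), or 0.30 without replicate 1 of untreated R150X. The 20 glycosylation and lectin genes gave 5 higher and 6 lower in WT and 7 higher and 4 lower in R150X. That is 11 of the 20 in each, against 45.8% of all genes tested in WT and 39.0% in R150X. The 22 translocon and signal peptidase genes gave 5 higher and 4 lower in WT and 2 higher and 6 lower in R150X, or 40.9% and 36.4%, near the shares of all genes. Ssr2, a subunit of the translocon-associated complex, fell by 0.41 in WT and 0.39 in R150X.

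Of 25 regulators of the unfolded protein response and outputs of the PERK branch, 24 were tested, and 9 fell and 4 rose with OxLDL in WT against 4 and 8 in R150X. These are 54.2% and 50.0% of the genes tested in this list, against 45.8% and 39.0% of all genes tested. Wfs1, an ER membrane protein of the stress response, rose by 1.07 in WT (adjusted p = 3.08e-13) and 0.77 in R150X (adjusted p = 4.9e-11). Creb3l1, a membrane-bound transcription factor, fell by 1.24 and 0.77. Among OxLDL-treated cells 9 of the 24 were higher in R150X and 1 lower, or 41.7%, against 13.0% of all genes tested (6.1% higher, 6.92% lower). Atf4, the transcription factor downstream of PERK, was higher by 0.56 (adjusted p = 5.75e-08) and Ppp1r15a, which restores translation, by 0.80 (adjusted p = 2.42e-06). Trib3, an ATF4 target, fell by 0.72 in WT and rose by 0.43 in R150X.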

How the data were processed

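The values the authors deposited were raw counts per Ensembl gene for 12 libraries, as whole numbers with unequal library totals. The submitters' processing notes name FastQC, HISAT2, featureCounts and DESeq2 and the builds mm10 and GRCm38. The strand setting is not given in the sources used here: reads of overlapping genes on opposite strands cannot be told apart. Of 54532 identifiers, 54495 matched the GENCODE annotation of GRCm38. Genes with low counts were removed with edgeR's filterByExpr, which left 15338. Libraries were scaled by TMM (factors 0.969 to 1.05), and edgeR 4.0.16 (R 4.3.3) fitted all 4 groups in 1 model. For each of 5 comparisons its quasi-likelihood test was run, with Benjamini-Hochberg adjustment over all genes tested, and "rose", "fell", "higher" and "lower" are called at an adjusted p under 0.05. SE belongs to the fitted log2 value. CPM refer to TMM-scaled totals, and with 3 counts a gene was at 0.165 to 0.202 CPM. The script was tested on simulated data.

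The members and lists were chosen with earlier results of these data known. The rule for named genes gave library values for members called in any comparison at an absolute log2 fold change of at least 0.3, and for 8 members chosen by role; other lists name up to 3 called genes per comparison with the smallest adjusted p. Alternatives were DESeq2 1.42.0, its size factors in edgeR, library size alone, no filter, only the groups compared, a replicate block, and leaving out each library.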

Additional observations from a re-analysis of the deposited data

Results flagged for a closer look

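These are the genes whose OxLDL response differed between R150X and WT by the interaction test (edgeR's quasi-likelihood test, Benjamini-Hochberg adjustment over all genes tested). Values are the log2 response in R150X minus that in WT. Among the 32 members, Ern1 differed by 0.36 (adjusted p = 0.0088), Edem2 by -0.39 (adjusted p = 0.00154) and Sel1l by 0.22 (adjusted p = 0.0461), the last lost in 9 of 12 runs that left out a library. By the same test 5 of the 8 stromal markers were higher (Col1a1 by 0.43, Col3a1 by 0.48 and Postn by 0.56) and 1 lower, and 6 of the 7 macrophage markers and 5 of the 8 neutrophil markers were lower. Their part in these differences was not tested.

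Of the 110 other ER genes tested, 11 were called, 9 higher and 2 lower. Those named here are up to 3 per list with the smallest adjusted p. Among regulators of the unfolded protein response 7 of the 24 tested were called, and not all are named. Trib3 differed by 1.15 (adjusted p = 7e-06), and it fell with OxLDL in WT and rose in R150X. Its mean was 26.5 CPM in untreated WT, 16.0 in treated WT, 20.2 in untreated R150X and 27.2 in treated R150X cells. Ero1a differed by 0.50 (adjusted p = 0.00015), Creb3l1 by 0.47 (adjusted p = 0.00179) and Fkbp9 by 0.32 (adjusted p = 0.00315). Fkbp10 differed by 0.32 (adjusted p = 0.0269), a call lost without replicate 2 of treated R150X, 2 of untreated R150X, 1 or 2 of treated WT, or 1 or 3 of untreated WT (adjusted p up to 0.0898). Selenok, a selenoprotein of ERAD, differed by -0.41 (adjusted p = 0.00786), rising in WT and falling in R150X, where the value was -0.10 (adjusted p = 0.136) without replicate 1 of untreated R150X. Wfs1 differed by -0.30 (adjusted p = 0.0112), a call lost with library size alone (adjusted p = 0.0845). Leaving out replicate 1 of untreated R150X, these differences were 1.13 for Trib3, 0.50 for Ero1a, 0.49 for Creb3l1, 0.32 for Fkbp9, 0.36 for Fkbp10, -0.31 for Selenok and -0.34 for Wfs1, and all passed the test.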

How the results depend on the processing

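Of 1783 recomputed log2 fold changes of named genes (139 results, 18 settings), 1709 kept their side of the threshold, 57 lost their call and 17 gained one. None of the called values changed sign, while 29 values called in neither fit did, 9 of them with library size alone. Library size alone gave 3 members higher and 8 lower in untreated R150X against WT and 4 higher in the interaction. It turned the members' median log2 fold change to -0.0071 in untreated R150X against WT and to 0.0463 in the interaction, and moved it to -0.18 for OxLDL in WT. Fitting only the groups compared gave 4 higher in untreated R150X and 8 higher with OxLDL in WT. With no filter, 1 was higher in treated R150X against WT and 3 were lower in the interaction, and DESeq2 gave 2 lower there. The replicate block gave 2 lower in the interaction and changed no other count by over 1.5 times. Within a treatment, same-numbered WT and R150X libraries deviated together slightly, with correlations of 0.0347 to 0.162 untreated and 0.0441 to 0.0682 with OxLDL. Different numbers gave -0.125 to 0.0275 and -0.0477 to -0.00769. Across treatments same numbers gave -0.0418 to 0.0458. Whether the numbers pair libraries within a treatment cannot be told from this, and the main fit holds no replicate block. The causes were not tested.

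Leaving out each library gave 4 to 9 members higher and 3 to 5 lower in untreated R150X against WT, 0 to 1 higher and 2 lower in treated R150X against WT, 4 to 6 higher and 12 to 15 lower with OxLDL in WT, 5 to 9 higher and 13 to 15 lower with OxLDL in R150X, and 1 to 3 higher and 1 to 2 lower in the interaction. The common biological coefficient of variation was 0.0608, and 3 libraries a group limit calls of small differences.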
